A study of Drosophila melanogaster with 20 samples.

Results

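Glycolysis splits glucose into pyruvate in the cytosol, and lactate dehydrogenase turns pyruvate into lactate while restoring the NAD that the pathway consumes. The 10 Drosophila melanogaster genes described here encode most of the enzymes between glucose-6-phosphate and pyruvate, together with lactate dehydrogenase itself. They are Pgi, Pfk, Tpi, Gapdh1, Gapdh2, Pgk, Pglym78, Eno, PyK and Ldh, taken by name from the deposited expression matrix of 17602 genes with values. All 10 were found, and all 10 were among the 10202 genes tested.

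RNA was sequenced from wing tissue and salivary glands of females at times given in hours before or after puparium formation, with at least 60 wings or glands in a sample. WT animals (+/+; +/+; +/+) supplied both tissues at -30 h (timed larvae), -6 h (wandering larvae) and +6 h (staged from white prepupae). EcRi animals supplied both tissues at -30 h and -6 h. They were yw/yw and carried Vg-GAL4, UAS-Flp and a Tub>>CD2>>GAL4 cassette, with UAS-GFP over UAS-EcR-RNAi[104], a hairpin against the ecdysone receptor EcR. In such a line the vestigial driver switches on a flip-out GAL4, which then stays on in those cells and their descendants. WT animals carried none of these elements, so a difference between the genotypes includes the driver, the reporter and the line as well as the hairpin. That gave 10 groups of 2 libraries, 20 in all, and the labels do not say whether replicates came from separate sets of animals, so the p-values measure the spread between libraries, which may be technical.

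In flies, much of the glycolytic pathway and Ldh are known targets of the oestrogen-related receptor ERR, which raises carbohydrate use during larval growth. Ecdysone, the steroid that EcR binds, drives the change from larva to prepupa. The salivary gland of the late larva fills with glue proteins, and in the prepupa the wing disc everts. Phosphofructokinase (Pfk) and pyruvate kinase (PyK) are the classical control points of glycolysis, and triose phosphate isomerase (Tpi), glyceraldehyde-3-phosphate dehydrogenase (Gapdh1 and Gapdh2), phosphoglycerate kinase (Pgk), phosphoglycerate mutase (Pglym78) and enolase (Eno) act between them. Glucose-6-phosphate isomerase (Pgi) opens the series.

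The genes lie apart in the genome. In dm6 coordinates, from the BDGP6 annotation, Pgi spans 8910900 to 8914069 on the minus strand of chromosome arm 2R, Pfk spans 10109740 to 10117457 on the plus strand of 2R, and Gapdh1 spans 7791901 to 7793380 on the minus strand of 2R. Gapdh2 is on X, from 15868145 to 15869661 on the plus strand. Pgk (2746880 to 2753068) and Eno (1724768 to 1729636) are both on the minus strand of 2L. Tpi (30132981 to 30134599, minus), Pglym78 (29148248 to 29149901, plus) and PyK (22367536 to 22372746, plus) are on 3R, and Ldh is on 3L, from 6259105 to 6262694 on the minus strand. All are protein coding, and each value covers the whole gene span, introns included. Eno shares 362 exonic bases with Rrp40 on the other strand, Pgk shares 65 with Cwc25 and Bacc, and Pglym78 shares 6 with eIF2D. Whether reads were counted by strand is not given in the sources used here, so reads in those bases cannot be told apart. Reads that match both near-identical Gapdh genes could likewise have been split or dropped, which leaves the level of either paralogue uncertain.

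Levels are given as scaled RPM, reads per 1000000 reads after TMM scaling for library composition, from libraries of 14949900 to 22626725 reads. Glue genes held 68.7% and 74.8% of all reads in the WT gland libraries at -6 h, and between 0.0119% and 2.32% in the 10 wing libraries. TMM factors were 0.24 and 0.20 in that group. In WT gland at +6 h they were also low (0.31 and 0.35), though glue genes held 0.48% and 0.87% of reads there. Many directions that involve WT gland at -6 h, or set wing against gland at +6 h, depended on the scaling. Without it the median log2 change of all tested genes was -1.13 between -30 h and -6 h in the WT gland (0.12 with scaling), 2.13 between WT wing and gland at -6 h (0.06), 1.39 at +6 h (0.10), 1.57 between EcRi and WT gland at -6 h (0.10) and -0.34 between -6 h and +6 h in the WT wing (0.00). EcR itself read 233 and 189 scaled RPM in EcRi gland at -6 h against 1372 and 1277 in WT gland (log2 -2.65), but 278.5 and 260.5 against 268 and 273 at -30 h (log2 -0.01), and in wing its change missed the threshold at both times (log2 -0.68 at -30 h and -0.50 at -6 h). The size of the EcR difference in gland at -6 h also depended on the scaling, with TMM factors of 0.96 and 1.12 in EcRi against 0.24 and 0.20 in WT. WT gland replicate 2 at -30 h had a read on 6356 genes, against 9414 to 11477 in the other libraries. Summed wing epithelium markers were 1292 to 1683 scaled RPM in wings and 110 to 241 in glands. Summed salivary gland markers were 1595 to 5075 in glands, 1313 to 1491 in WT wing at +6 h and 156.3 to 424 in the other wings. Fat body markers summed to 2947 to 21574 in glands, highest in EcRi gland at -30 h (14667 and 21574), against 25.4 to 199 in every wing library other than WT wing replicate 2 at -30 h (2700). In such bulk samples, fewer cells of a type and less RNA per cell cannot be told apart.

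**Figure D1:**
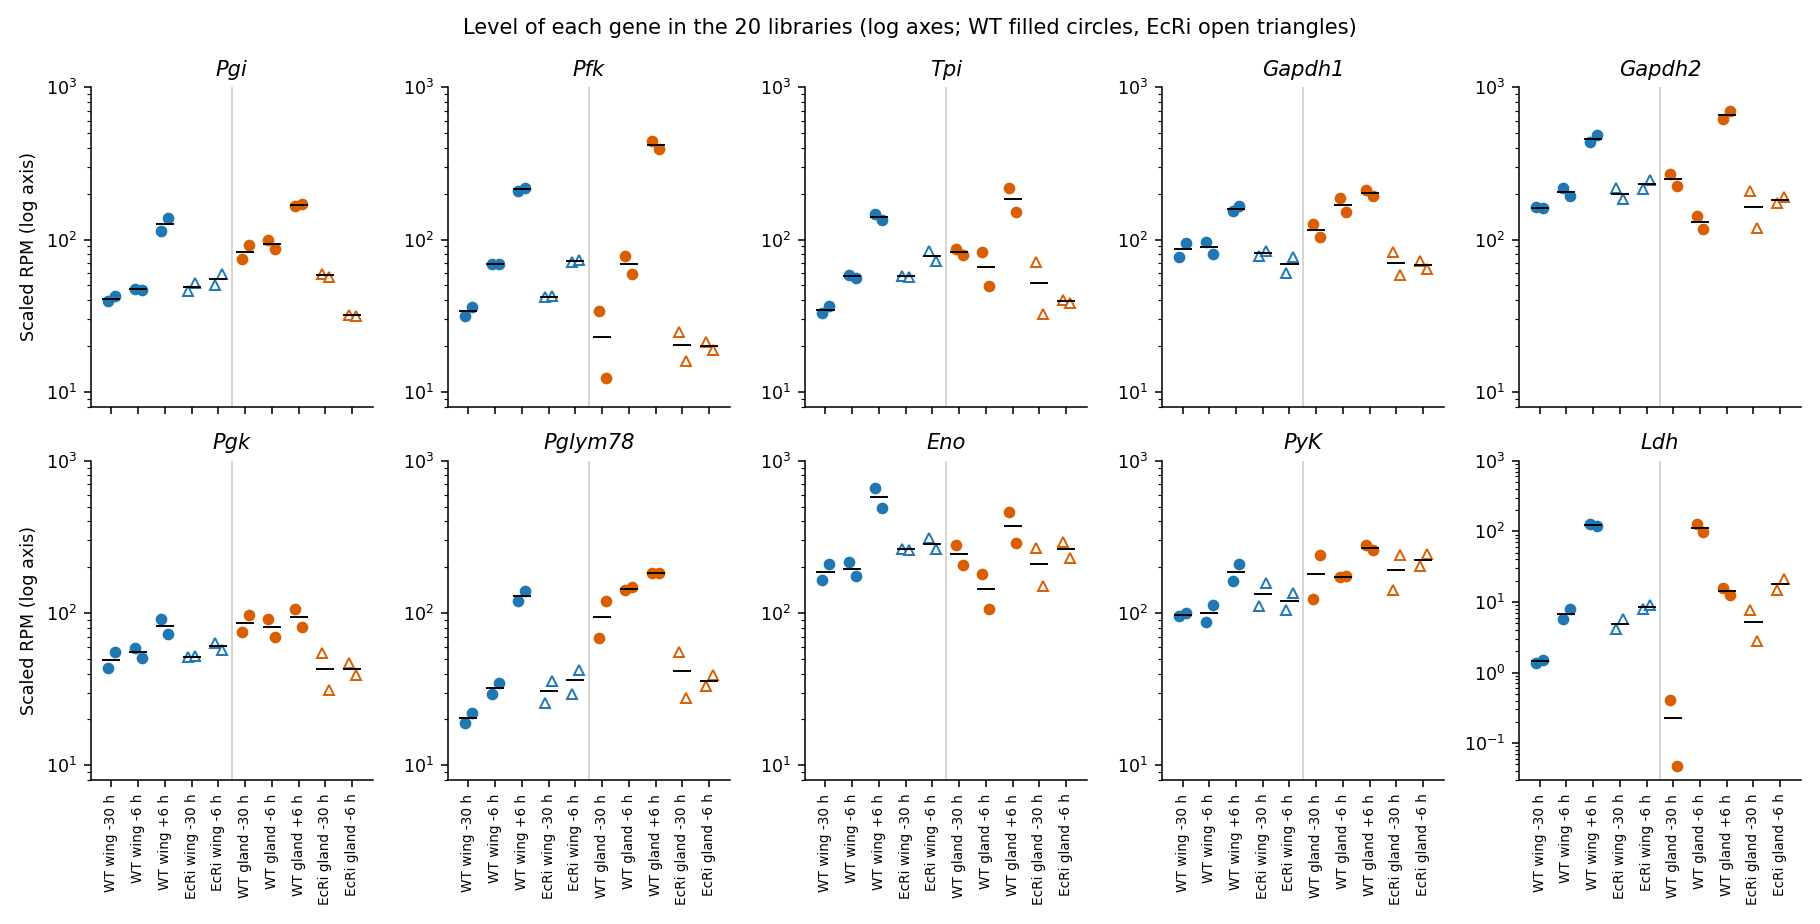
Level of each of the 10 genes (scaled RPM, log axes) in the 20 libraries, 1 panel a gene and 1 column a group, with WT as filled circles and EcRi as open triangles, wings left of the grey line and glands right of it. Ldh spans from 0.0476 to 128 scaled RPM, while Pgk group means span 2.19-fold.

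Ldh was the member whose level moved most across the 10 groups, from a mean of 0.229 scaled RPM in WT gland at -30 h to 123 in WT wing at +6 h. Among the glycolytic enzymes, scaled group means of Pfk spanned 20.9-fold, from 20.02 in EcRi gland at -6 h to 418 in WT gland at +6 h, and those of Pglym78 spanned 8.93-fold. Gapdh1, PyK and Pgk moved least, with group means that spanned 3.00-fold, 2.75-fold and 2.19-fold. With TMM scaling WT gland at +6 h was the highest group for 8 of the 10 genes, the exceptions being Eno and Ldh, which were highest in WT wing at +6 h, but without scaling WT wing at +6 h was the highest group for 8 genes, with Pgk highest in EcRi wing at -6 h and PyK in EcRi wing at -30 h. On a per-length scale (scaled RPM per exonic kilobase), Gapdh2 had the highest level of the 10 in 9 groups and Pglym78 in WT gland at -6 h. On the same scale Ldh was the lowest of the 10 in every group except WT wing at +6 h, where it passed Pgi, Pfk and Pgk, EcRi gland at -6 h, where it passed Pfk, and WT gland at -6 h, where it passed Tpi, Eno, Pgk, Pgi and Pfk. By length of the whole gene span, the deposited scale, Gapdh1 was highest in WT gland at -6 h (RPKM 25.2 against 19.1 for Pglym78). On that scale Ldh was lowest in the same 7 groups, but did not pass Pgi in WT wing at +6 h (43.9 against 51.1) or Tpi in WT gland at -6 h (6.97 against 9.20).

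The first comparison follows the WT wing from -30 h to -6 h, before puparium formation. Ldh read 1.38 and 1.50 scaled RPM at -30 h and 5.67 and 7.95 at -6 h, so both later libraries stood above both earlier ones, and it rose (log2 1.66 ± 0.35 SE, n = 2 a group, limma adjusted p = 0.00789). It was the only one of the 10 genes called, where 5.26% of all tested genes were called (2.96% higher and 2.3% lower). Genes were called where the p-value, adjusted by the Benjamini-Hochberg method over all tested genes, was under 0.05 and the log2 change at least 1, that is 2-fold. Pfk, the committed step of the pathway, read 31.5 and 36.3 at -30 h and 68.9 and 69.1 at -6 h, which did not pass (log2 1.01 ± 0.33, adjusted p = 0.0917). The other 8 enzymes differed by log2 0.02 (PyK) to 0.71 (Tpi). The Ldh call was lost without WT wing replicate 2 at -6 h (log2 1.44, adjusted p = 0.107), and at these low levels a pseudocount of 4 in place of 1 took the change to 0.98. Glue genes also read higher in the later wings, 8888 and 12970 against 112 and 366 scaled RPM, as did the summed salivary gland markers, 345 and 424 against 156.3 and 189. All 7 glue genes were called higher, while of 6 salivary gland markers 2 were called higher and 2 lower. The part of either list in the Ldh change was not tested.

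Between -6 h and +6 h, as the WT wing passed into the prepupa, 7 of the 10 genes rose and none fell, where 16.5% of all tested genes were called (10.2% higher and 6.29% lower). In the first steps of the pathway, Pgi went from 47.1 and 47.0 scaled RPM to 114 and 139 (log2 1.40 ± 0.15, adjusted p = 7.73e-06). Pfk went from 68.9 and 69.1 to 209.8 and 218 (log2 1.62 ± 0.33, adjusted p = 0.00195), and Tpi from 58.4 and 56.2 to 147 and 134 (log2 1.28 ± 0.30, adjusted p = 0.0062). For each of these the later libraries were at least 2-fold above the earlier ones. Of the Gapdh pair, Gapdh2 rose from 216 and 194 to 436 and 485 (log2 1.16 ± 0.21, adjusted p = 0.000811), while Gapdh1 stayed under the 2-fold minimum at 96.9 and 80.6 against 153 and 165 (log2 0.84 ± 0.19). Pglym78, the mutase, read 29.3 and 34.6 at -6 h and 119 and 140.1 at +6 h (log2 1.99 ± 0.31, adjusted p = 0.000279), and Eno read 215 and 176 at -6 h and 664 and 493 at +6 h (log2 1.55 ± 0.32, adjusted p = 0.00208). Their later libraries all lay above the earlier ones. PyK (log2 0.89 ± 0.30) and Pgk (0.56 ± 0.25), both of which make ATP, did not pass.

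Ldh made the largest change of the 10 in that interval, from 5.67 and 7.95 scaled RPM to 126 and 120.0 (log2 4.0 ± 0.35, 16-fold, adjusted p = 1.08e-06). All 10 genes had both later libraries above both earlier ones, and 71.3% of all tested genes had groups that did not overlap. The median log2 change of the 10 was 1.34 against 0.00 over all tested genes. The 7 calls were kept when any 1 library of the compared groups was left out. Without TMM scaling 4 were called (Pfk, Pglym78, Eno and Ldh), with all 10 still positive, and the share of all calls that were higher moved from 61.9% to 35.2%. Summed blood cell markers also read higher at +6 h (50.5 and 58.6 scaled RPM against 17.6 and 18.9), with 3 of 5 genes called higher. The sum of the salivary gland list given above was higher too, but 2 of its 6 genes were called (median log2 0.02). All 7 glue genes were called lower. The part of these markers in the changes was not tested.

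**Figure D2:**
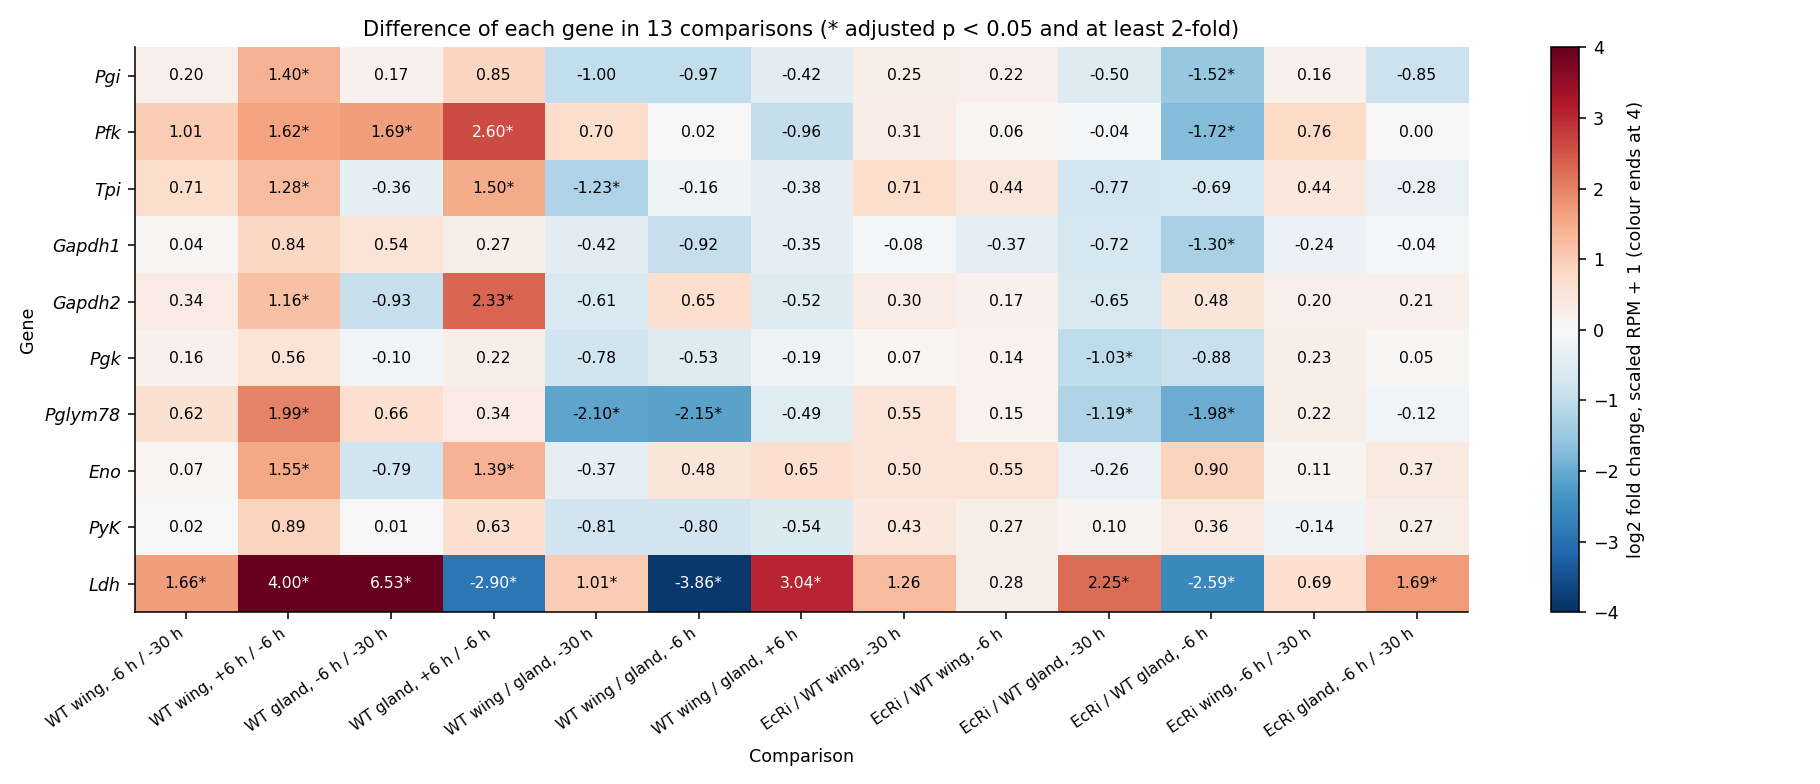
Log2 fold change of each gene (rows) in the comparisons between groups (columns), with colour running from lower to higher and ending at a log2 change of 4; an asterisk marks the cells that passed the threshold. Ldh carries calls of both signs and the WT wing at +6 h has 7 genes called higher; without TMM scaling the sign reverses for 5 genes in WT gland to -6 h, 6 in wing against gland and in EcRi against WT gland at -6 h, and 8 in wing against gland at +6 h.

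The WT gland over the same larval interval, from -30 h to -6 h, gave calls for Ldh and Pfk. Ldh had 9 reads and 1 read at -30 h (95% exact Poisson intervals 4.12 to 17.1 and 0.0253 to 5.57 reads, counting error only) and 563 and 417 reads at -6 h. As levels these are 0.411 and 0.0476 scaled RPM against 128 and 96.6, and Ldh rose (log2 6.53 ± 0.35, adjusted p = 5.61e-09). The log2 change ranged from 6.30 to 6.84 when any 1 library of the compared groups was left out. The pseudocount of 1 understates a change from so low a level. Pfk read 33.8 and 12.2 at -30 h and 77.6 and 59.8 at -6 h, and rose with TMM scaling (log2 1.69 ± 0.33, adjusted p = 0.000687) but reversed to -0.72 without it. That call was lost, just under 2-fold, without WT gland replicate 2 at -30 h (log2 0.99) or with a fit of the 2 groups alone (adjusted p = 0.0638). These 2 of 10 calls stand against 34.8% of all tested genes (19.7% higher and 15.1% lower). Of all calls 56.5% were higher with scaling and 6.18% without.

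The remaining enzymes did not pass in that interval. Gapdh2 read 271 and 226 at -30 h and 143.5 and 117 at -6 h, a separation of the libraries just short of 2-fold (log2 -0.93 ± 0.21, adjusted p = 0.00221), and Eno went the same way (279 and 206.5 against 180.3 and 107, log2 -0.79 ± 0.32). Pglym78 (log2 0.66), Gapdh1 (0.54), Pgi (0.17) and PyK (0.01) were positive with scaling and turned negative without it, while Pgk (-0.10) and Tpi (-0.36) were negative either way. Set against the unscaled all-gene median, Ldh was 5.45 above it, Pfk 0.41 above it, Gapdh2 2.26 below it on the log2 scale (relative value -2.26) and Eno at -2.12. Against the scaled median they lay at 6.41 (Ldh), 1.57 (Pfk), -1.05 (Gapdh2) and -0.91 (Eno). A pseudocount of 1 was added on both scales, so neither set of values is free of the scaling. The summed scaled RPM of markers of other cell types also read higher at -6 h. Summed blood cell markers went from 15.8 and 43.0 to 87.8 and 89.7 with 2 of 5 genes called higher, fat body markers from 3693 and 7392 to 7566 and 8562 with 4 of 9 called higher, muscle markers from 129 and 172 to 247 and 330.4 with 1 of 10 called higher and 2 lower, and trachea markers from 76.8 and 95.7 to 120 and 144. Their part in these changes was not tested.

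From -6 h to +6 h in the WT gland Pfk, Tpi, Gapdh2 and Eno rose and Ldh fell, 5 of 10 genes where 30.6% of all tested genes were called (16.9% higher, 13.7% lower). Pfk went from 77.6 and 59.8 scaled RPM to 444 and 393 (log2 2.60 ± 0.33, adjusted p = 1.69e-05), the highest scaled level of Pfk in any group, while unscaled it read 138 and 136 RPM there against 270.2 and 278 in WT wing at +6 h. Gapdh2 went from 143.5 and 117 to 622 and 696 (log2 2.33 ± 0.21, adjusted p = 6.08e-07), Tpi from 83.1 and 49.4 to 219 and 152 (log2 1.50 ± 0.30, adjusted p = 0.0011). Eno went from 180.3 and 107 to 458 and 289 (log2 1.39 ± 0.32, adjusted p = 0.00255). The libraries of the 2 times did not overlap for any of these 4 genes. Pgi differed in the same direction by less than 2-fold (99.5 and 86.9 against 165 and 172, log2 0.85 ± 0.15, adjusted p = 0.000325), and PyK (0.63), Pglym78 (0.34), Gapdh1 (0.27) and Pgk (0.22) did not pass.

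Ldh dropped back in that interval from 128 and 96.6 scaled RPM to 15.6 and 12.7 (log2 -2.90 ± 0.35, adjusted p = 1.12e-05), both later libraries lying far below the earlier ones and well above the -30 h level. The 5 calls were kept when any 1 library of the compared groups was left out. All 5 kept their direction without TMM scaling, which moved the share of all calls that were higher from 55.3% to 78.9%. Fat body markers summed to 2947 and 3449 at +6 h and 7566 and 8562 at -6 h, and trachea markers to 320 and 426 against 120 and 144. Of 9 fat body markers 4 were called lower and none higher, and of 5 trachea markers 3 higher and none lower. Of 6 salivary gland markers 5 were called lower and none higher (median log2 -3.14), and all 7 glue genes were called lower. The part of these differences in the result was not tested.

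Wing and gland were compared directly at each WT time. At -30 h, Pglym78 read 18.9 and 22.0 scaled RPM in wing and 68.3 and 120 in gland (log2 wing minus gland -2.10 ± 0.31, adjusted p = 9.07e-05). Tpi read 32.7 and 36.6 against 86.6 and 78.8 (log2 -1.23 ± 0.30, adjusted p = 0.00494). Both were lower in wing, and with Ldh (log2 1.01 ± 0.35, adjusted p = 0.0311) they made 3 of 10 calls against 30.9% of all tested genes (20% higher in wing and 10.9% lower). The Ldh call at -30 h rested on 9 reads and 1 read in gland and was lost without either WT wing library at -30 h (log2 0.99 and 0.95) or without WT gland replicate 2 (0.79). Without TMM scaling the Tpi call was lost (-0.59), and with array weights all 3 calls were lost. Pgi, at 39.3 and 42.5 in wing against 74.3 and 91.8 in gland, lay just inside the fold minimum and was not called (log2 -0.998 ± 0.15, adjusted p = 8.76e-05). The remaining 6 genes were not called either, at log2 -0.81 (PyK), -0.78 (Pgk), -0.61 (Gapdh2), -0.42 (Gapdh1), -0.37 (Eno) and 0.70 (Pfk); without scaling Gapdh1, Gapdh2 and Eno were positive and Pfk was called higher in wing (1.35).

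At -6 h the tissues differed in Ldh, 5.67 and 7.95 scaled RPM in wing against 128 and 96.6 in gland (log2 -3.86 ± 0.35, adjusted p = 3.79e-07), and in Pglym78, 29.3 and 34.6 against 141 and 147 (log2 -2.15 ± 0.31, adjusted p = 4.12e-05). Without TMM scaling Pglym78 reversed to 0.84, and Ldh stayed negative at -0.95, under the fold minimum. The other 8 genes ran from -0.97 (Pgi) and -0.92 (Gapdh1), through PyK (-0.80), Pgk (-0.53), Tpi (-0.16) and Pfk (0.02), to Eno (0.48) and Gapdh2 (0.65) with scaling, and all 8 were positive without it. Ldh and Pglym78 were the 2 calls of 10 where 44.4% of all tested genes were called (24.6% higher in wing and 19.8% lower). At +6 h the order of Ldh was the opposite, 126 and 120.0 in wing against 15.6 and 12.7 in gland (log2 3.04 ± 0.35, adjusted p = 3.72e-06), and it was the only call of 10 against 47.1% of all tested genes (26.8% higher and 20.3% lower). No enzyme differed by 2-fold at +6 h with scaling, the nearest being Pfk (log2 -0.96 ± 0.33), whereas without scaling 9 genes, all but Pfk, were called higher in wing, and 8 of the 10, Pfk included (0.99), turned from negative to positive. The test of the difference between tissues in the change over time was called for Ldh in both intervals (log2 wing minus gland -4.87 ± 0.49, adjusted p = 6.72e-06, from -30 h to -6 h, and 6.90 ± 0.49, adjusted p = 1.51e-07, from -6 h to +6 h). With Gapdh2 in the first interval (1.26 ± 0.29) and Gapdh2 (-1.17 ± 0.29) and Pglym78 (1.65 ± 0.44) in the second, these made 2 of 10 calls against 28.3% of all tested genes (13.2% higher and 15.2% lower) and 3 of 10 against 27.1% (13.7% higher and 13.4% lower); the second Gapdh2 call was lost without WT wing replicate 1 (-0.85) or 2 (-0.96) at -6 h, and the Pglym78 call without TMM scaling (0.61). With array weights the first Gapdh2 call was lost as well (adjusted p = 0.138).

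In wing, the EcR hairpin line was compared with WT at -30 h and -6 h, and none of the 10 genes was called at either time, where 2.23% of all tested genes were called at -30 h (0.921% higher and 1.3% lower) and 1.79% at -6 h (1.22% higher and 0.578% lower). At -30 h Ldh read 4.13 and 5.64 scaled RPM in EcRi and 1.38 and 1.50 in WT, libraries that did not overlap, but the difference did not pass (log2 1.26 ± 0.35, normal 95% interval 0.58 to 1.94, adjusted p = 0.0859). At -6 h Ldh read 7.83 and 8.97 against 5.67 and 7.95, with overlapping libraries (log2 0.28, normal 95% interval -0.40 to 0.96). For the 9 enzymes at -6 h the differences ran from -0.37 (Gapdh1) to 0.55 (Eno). At an unadjusted p under 0.05 there were 2 of the 10 genes at -30 h (Tpi and Ldh), where 10.3% of all tested genes passed that limit, and 0 at -6 h, where 7.68% did. Between -30 h and -6 h within EcRi wing none of the 10 was called either, against 2.92% of all tested genes (2.23% higher and 0.686% lower), with Ldh at log2 0.69 ± 0.35 and 1 gene, Pfk (0.76 ± 0.33), at an unadjusted p under 0.05, as were 13% of all tested genes. The difference between that change and the WT change was not called for any of the 10 (0.794% of all tested genes were, 0.647% higher and 0.147% lower) and 0 had an unadjusted p under 0.05 (5.67% of all tested genes did), with Ldh at -0.98 ± 0.49.

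In gland at -30 h the EcRi line differed from WT in Ldh and in 2 enzymes, 3 of 10 genes where 12.6% of all tested genes were called (9.16% higher and 3.44% lower). Of those calls 72.7% were higher with scaling and 18.1% without. Ldh read 7.73 and 2.82 scaled RPM against 0.411 and 0.0476, higher in both EcRi libraries (log2 2.25 ± 0.35, adjusted p = 0.000645). Pglym78 read 55.5 and 27.6 against 68.3 and 120 (log2 -1.19 ± 0.31, adjusted p = 0.0177) and Pgk read 54.5 and 31.2 against 75.1 and 96.8 (log2 -1.03 ± 0.25, adjusted p = 0.0128). Both were lower in EcRi without overlap. The others were not called, at log2 -0.77 (Tpi), -0.72 (Gapdh1), -0.65 (Gapdh2), -0.50 (Pgi), -0.26 (Eno), -0.04 (Pfk) and 0.10 (PyK). The 2 EcRi replicates stood apart, with a median difference over the 10 genes of 0.791 on the log2 scale against 0.132 to 0.396 in the other groups. Both enzyme calls were lost without EcRi gland replicate 2 (Pglym78 -0.70, Pgk -0.64) and without WT gland replicate 2 (-0.79 and -0.85), and a fit of the 2 compared groups alone or with array weights called none of the 3. Fat body markers were 14667 and 21574 in EcRi against 3693 and 7392 in WT, and muscle markers 150.5 and 338 against 129 and 172, with 4 muscle markers at 0 in a WT library. Called higher were 2 of 9 fat body, 5 of 10 muscle, 2 of 5 blood cell and 2 of 5 trachea markers, and none of these was called lower. Of 6 salivary gland markers 2 were called lower and none higher. Their part in the result was not tested.

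At -6 h in gland 5 of the 10 genes were lower in EcRi than in WT and none was higher, where 26.6% of all tested genes were called (16.1% higher, 10.5% lower); without TMM scaling 4 of those 5, all but Ldh, turned to higher, and 96.9% of all calls were higher in place of 60.5%. With scaling, Pgi read 31.9 and 31.6 scaled RPM in EcRi and 99.5 and 86.9 in WT (log2 -1.52 ± 0.15, adjusted p = 2.21e-06, 0.68 unscaled). Pfk read 21.1 and 18.9 against 77.6 and 59.8 (log2 -1.72 ± 0.33, adjusted p = 0.000779, 0.46 unscaled). Both libraries of EcRi lay below both of WT for each gene on that scale. Gapdh1 read 71.7 and 63.6 against 186 and 151 (log2 -1.30 ± 0.19, adjusted p = 9.58e-05, 0.92 unscaled), and Pglym78 read 32.9 and 39.1 against 141 and 147 (log2 -1.98 ± 0.31, adjusted p = 0.000178, 0.24 unscaled).

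Ldh at -6 h read 14.99 and 20.8 scaled RPM in EcRi gland against 128 and 96.6 in WT gland, and was lower with scaling (log2 -2.59 ± 0.35, adjusted p = 4.15e-05). Without scaling it stayed negative but was not called (log2 -0.38, adjusted p = 0.423). The other 5 genes did not pass, and Gapdh2 (log2 0.48), Eno (0.90) and PyK (0.36) were positive. Relative to the unscaled all-gene median the 5 called genes lay at -0.89 (Pgi), -1.11 (Pfk), -0.65 (Gapdh1), -1.33 (Pglym78) and -1.96 (Ldh), while Eno lay at 1.54, Gapdh2 at 1.12 and PyK at 1.01. Relative to the scaled median they lay, in the same order, at -1.63, -1.82, -1.40, -2.08 and -2.69, and at 0.80, 0.38 and 0.26. With scaling or without, 7 of the 10 genes lay below the median of all tested genes and 3 above it. All 10 had groups that did not overlap, and so did 69.4% of all tested genes. The 5 calls were kept when any 1 library of the compared groups was left out. Summed fat body markers were 5496 and 9513 in EcRi and 7566 and 8562 in WT, and muscle markers 103 and 109 against 247 and 330.4. Of 10 muscle markers 1 was called lower and none higher (median log2 0.03), and none of 9 fat body markers was called. Their part in the result was not tested.

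**Figure D3:**
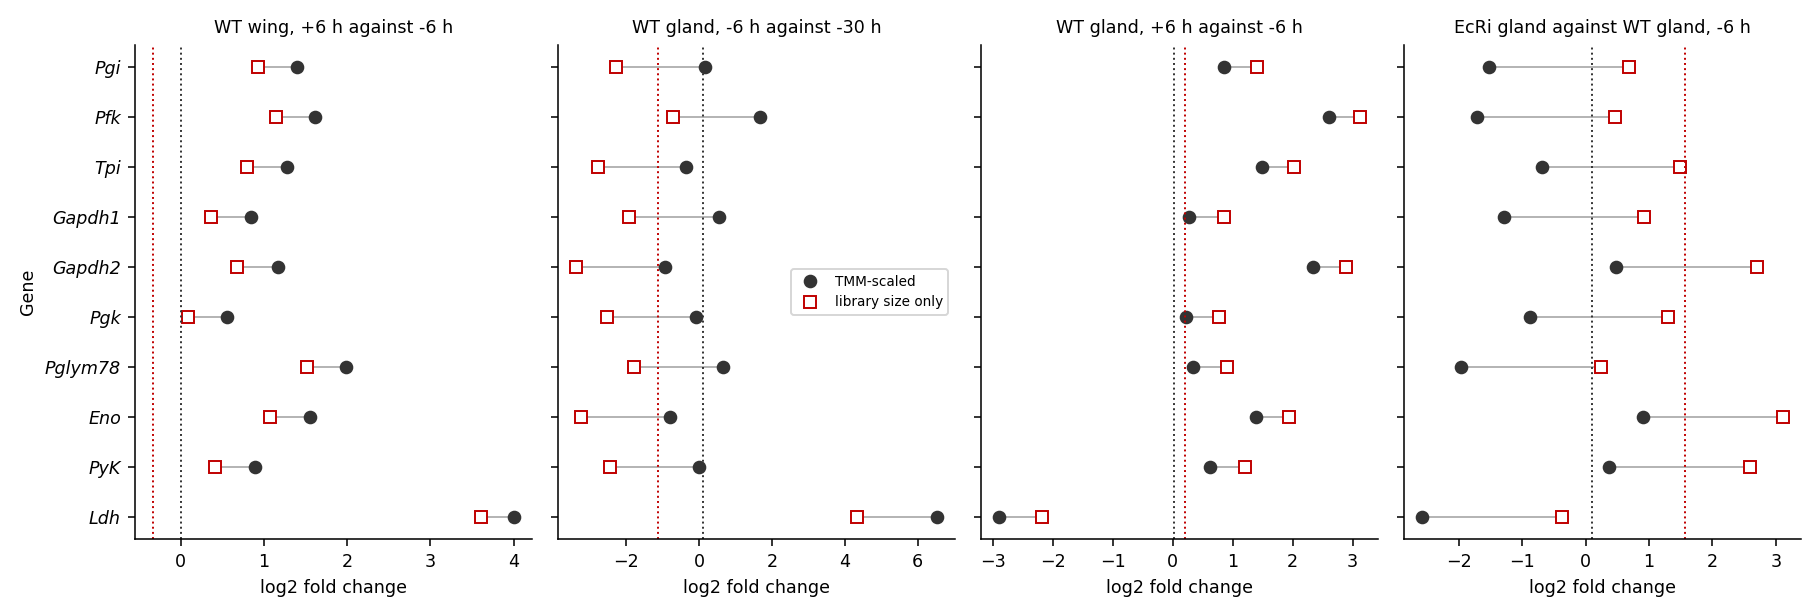
Log2 fold change (x axis) of each gene (y axis) with TMM scaling (filled circles) and with library size alone (open squares) in 4 comparisons, with dotted lines at the median of all tested genes on each scale. For Pgi, Pfk, Gapdh1 and Pglym78 the unscaled EcRi difference at -6 h is positive (0.68, 0.46, 0.92 and 0.24) and the scaled one negative, while Ldh keeps its sign in all 4 panels.

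Within EcRi gland from -30 h to -6 h Ldh was the only gene of the 10 called, against 4.43% of all tested genes (2.88% higher and 1.55% lower). It went from 7.73 and 2.82 scaled RPM to 14.99 and 20.8 (log2 1.69 ± 0.35, adjusted p = 0.00845), with no overlap of libraries. Pgi differed by less than 2-fold (log2 -0.85 ± 0.15), and the other 8 enzymes ran from -0.28 (Tpi) to 0.37 (Eno), with Gapdh1 at -0.04, Pglym78 at -0.12, Pfk at 0.00, Pgk at 0.05, Gapdh2 at 0.21 and PyK at 0.27. Tpi, Gapdh1 and Pglym78 were positive without scaling. The Ldh call was lost in a fit of the 2 groups alone (adjusted p = 0.0617), without EcRi gland replicate 2 at -30 h (log2 1.10) or without replicate 2 at -6 h (1.47, adjusted p = 0.108). The WT rise over the same hours was larger, as the test of the difference in change gave -4.84 ± 0.49 for EcRi minus WT (adjusted p = 7.45e-06). A further 3 genes differed in their change between the genotypes with scaling, Pgi (-1.02 ± 0.21), Pfk (-1.68 ± 0.46) and Gapdh2 (1.13 ± 0.29), so that 4 of 10 were called against 26.4% of all tested genes (13.7% higher and 12.8% lower); without scaling Pgi and Pfk reversed to 1.89 and 1.17. Those 3 calls were lost in a fit of the compared groups alone, and each depended on single libraries, with Pgi at -0.87 without WT gland replicate 1 at -30 h, Pfk at -0.99 without WT gland replicate 2 at -30 h and Gapdh2 at 0.73 without EcRi gland replicate 2 at -30 h. The EcRi effect at -6 h also differed between wing and gland for Pgi (1.74 ± 0.21), Pfk (1.78 ± 0.46), Pglym78 (2.13 ± 0.44) and Ldh (2.87 ± 0.49), 4 of 10 against 21.5% of all tested genes (9.01% higher and 12.5% lower), and the first 3 of these reversed without scaling (-0.50, -0.43 and -0.12), while Ldh stayed positive at 0.65 but was not called.

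Ratios within a library need no scaling factor, and they set 2 groups apart. Gapdh2 took 43.6% and 43.7% of the summed Gapdh reads in WT gland at -6 h, and 62.7% to 78.2% in the 18 other libraries, EcRi gland at -6 h included (70.9% and 74.8%). Ldh took 9.86% and 9.13% of the reads of the 10 genes in WT gland at -6 h and 5.66% and 5.51% in WT wing at +6 h, against 0.00405% to 2.28% in the 16 other libraries. Set against PyK, whose product is the substrate of Ldh, and per exonic length, Ldh had 63.8 and 86.7 reads for every 100 of PyK in WT gland at -6 h and 66.3 and 89.1 in WT wing at +6 h. The same ratio was 8.51 and 9.87 in EcRi gland at -6 h and 5.70 and 6.47 in WT gland at +6 h. The 10 genes together held from 0.0208% of all reads, in WT gland at -6 h, to 0.286%, in WT wing at +6 h.

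Over the 10 groups the scaled levels of Ldh gave an order with large gaps. WT wing at +6 h and WT gland at -6 h had the highest levels and overlapped, with 120.0 to 126 and 96.6 to 128 scaled RPM. EcRi gland at -6 h (14.99 and 20.8) and WT gland at +6 h (15.6 and 12.7) came next and also overlapped. EcRi wing at -6 h, WT wing at -6 h, EcRi gland at -30 h and EcRi wing at -30 h followed between 2.82 and 8.97, each overlapping its neighbour in the order. WT wing at -30 h (1.38 and 1.50) and WT gland at -30 h (0.411 and 0.0476) were lowest, apart from each other and from the rest. Unscaled, Ldh read 153 to 162 RPM in WT wing at +6 h and 19.0 to 31.1 in WT gland at -6 h, which then overlapped EcRi gland at -6 h (14.4 to 23.4), while WT gland at +6 h (4.41 to 4.86) lay below the wings at -6 h.

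As a description over the 10 group means, which share libraries and scaling, Pearson correlations of log2 levels among the 36 pairs of the 9 glycolytic enzymes ran from 0.27 to 0.922 with a median of 0.703. Those of Ldh with the 9 enzymes were lower, 0.194 to 0.55 with a median of 0.38. Among 5774 other genes of sufficient level, the profiles most like that of Ldh were E23 (r = 0.947 over 10 groups), which encodes an ABC transporter, then CG18549 (0.942), CG31100 (0.937), Spec2 (0.926) and CG7888 (0.915). E23 shared with Ldh its highest level in WT wing at +6 h (354 scaled RPM), its next in WT gland at -6 h (209) and its lowest in WT gland at -30 h (2.03). The profiles most like the mean of the 9 enzymes were those of roq (0.946), heix (0.934), drpr (0.928), the engulfment receptor Draper, CG8860 (0.928) and SLC5A11 (0.923).

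The rest of carbohydrate metabolism was followed through 62 other genes in 7 lists. In WT wing from -6 h to +6 h, 10.2% of all tested genes were called higher and 6.29% lower. Of 13 tested genes of sugar entry and the remaining glycolytic steps 4 rose and none fell. They included the aldolase Ald1 (143 to 378 scaled RPM, log2 1.39 ± 0.20) and the glycogen phosphorylase GlyP (128 to 354, log2 1.46 ± 0.31). Of 4 tested genes of glycogen synthesis and gluconeogenesis 2 rose, led by fbp, fructose-1,6-bisphosphatase (19.8 to 92.2, log2 2.16 ± 0.18). No gene was called among 13 of the TCA cycle, 7 of pyruvate entry, 7 of the pentose phosphate pathway or 6 of the NAD shuttles. Of 10 regulators, sima, the fly HIF-alpha, rose (277 to 655, log2 1.24 ± 0.13) and Myc fell (167 to 75.0, log2 -1.15 ± 0.25). Ald1, GlyP and sima stayed positive without TMM scaling but under the fold minimum (0.91, 0.98 and 0.76). In the earlier wing interval Glut1, a glucose transporter, rose from 4.20 to 45.6 (log2 3.16 ± 0.28). It was the 1 gene of its list called, where 2.96% of all tested genes were called higher.

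In WT gland from -30 h to -6 h, 19.7% of all tested genes were called higher and 15.1% lower with scaling. The list counts are also those with scaling, without which 6.18% of all calls were higher in place of 56.5%. Of 13 sugar entry genes 4 were higher and 1 lower, led by the trehalose transporter Tret1-1 (7.68 to 52.3 scaled RPM, log2 3.59 ± 0.83) and by Glut1 (26.2 to 144, log2 2.43 ± 0.28, but -0.02 without scaling). Genes of the glycerol phosphate and NAD shuttles fell in 4 of 6 cases, among them Gpdh1 (149 to 14.9, log2 -3.24 ± 0.26) and Gpo1 (119 to 7.82, log2 -3.75 ± 0.21), and so did 4 of 13 TCA cycle genes, among them the fumarase Fum1 (65.3 to 10.7, log2 -2.45 ± 0.21), and 6 of 7 pentose phosphate genes. Pyruvate entry had 4 of 7 genes lower, including Pdha, the pyruvate dehydrogenase alpha subunit (148 to 34.2, log2 -2.10 ± 0.15), and 1 higher, Pdk, the kinase that inhibits that complex (23.8 to 211, log2 3.65 ± 0.56). The calls of Tret1-1 and Pdk were lost without scaling (log2 1.37 and 1.20). From -6 h to +6 h Glut1 fell (144 to 10.6, log2 -3.68 ± 0.28) and Tret1-1 rose (52.3 to 437, log2 3.17 ± 0.83), with 3 genes of that list higher and 3 lower; the Tret1-1 call was lost without WT gland replicate 2 at -6 h (log2 2.56, adjusted p = 0.0794). Of 13 TCA cycle genes 4 were lower and none higher, among them citrate synthase, kdn (426 to 32.9, log2 -3.66 ± 0.18). Of 10 regulators 5 were higher and 1 lower, with sima among the higher (290.1 to 1569, log2 2.42 ± 0.13). Over that interval 16.9% of all tested genes were called higher and 13.7% lower.

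In EcRi gland at -6 h, compared with WT, 16.1% of all tested genes were called higher and 10.5% lower. These shares and the list counts are those with TMM scaling, without which 96.9% of all calls were higher in place of 60.5%. Sugar entry had 5 of 13 genes lower and 1 higher, with Glut1 at 15.3 against 144 scaled RPM (log2 -3.16 ± 0.28, -0.94 without scaling) and Ald1 at 235 against 685 (log2 -1.54 ± 0.20, but 0.71 without scaling). Shuttle genes were higher in 3 of 6 cases, among them Gpdh1 (127 against 14.9, log2 3.01 ± 0.26) and Gpo1 (94.2 against 7.82, log2 3.43 ± 0.21). The pentose phosphate pathway had 4 of 7 genes higher, led by Zw, glucose-6-phosphate dehydrogenase (36.8 against 1.96, log2 3.70 ± 0.27). The TCA cycle had 2 of 13 higher, near the share of all tested genes, with Fum1 at log2 2.26 ± 0.21. In EcRi gland at -30 h Tret1-1 (73.1 against 7.68, log2 4.19 ± 0.83) and Zw (28.4 against 5.78, log2 2.13 ± 0.27) were higher, 2 calls that a fit of those groups alone did not make. In wing at -6 h no gene of any of the 7 lists was called between the genotypes, where 1.79% of all tested genes were called.

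**Figure D4:**
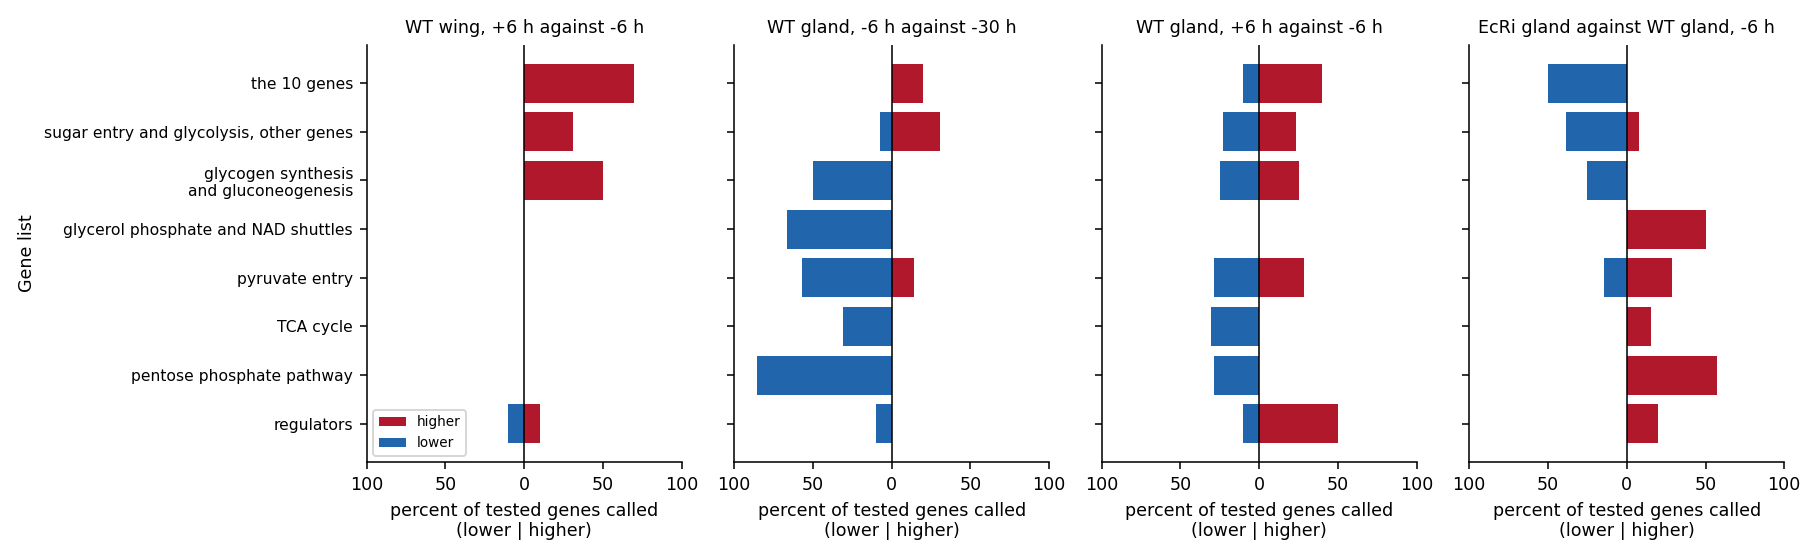
Percent of the tested genes called lower (left) or higher (right) in the 10 genes and in 7 lists of other carbohydrate metabolism genes, 1 panel for each of 4 comparisons. In WT wing from -6 h to +6 h 7 of the 10 genes are called higher, with bars also for the sugar entry, glycogen and regulator lists; counts in the gland panels are those with TMM scaling, without which 9 of the 10 genes were called between -30 h and -6 h, all but Ldh lower.

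The authors' deposited tables of their own comparisons give the same direction for the calls on Ldh. In the authors' deposited table the Ldh log2 change was 2.16 ± 0.42 in WT wing from -30 h to -6 h, 4.21 ± 0.39 from -6 h to +6 h and 8.85 ± 0.60 in WT gland from -30 h to -6 h. For EcRi wing against WT at -30 h the authors' deposited table holds Ldh at 1.59 ± 0.52 with an adjusted p of 0.0018, where the fit here missed the threshold. The authors' deposited table for EcRi against WT gland at -6 h lists Pgi at -1.67 ± 0.17, Pfk at -1.79 ± 0.36, Pglym78 at -2.02 ± 0.35 and Ldh at -2.64 ± 0.39. Small differences lie nearer to 0 in the authors' deposited table than in the fit here, as for Ldh between EcRi and WT wing at -6 h, 0.0097 against 0.28.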

How the data were processed

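Libraries were made with a Tecan Universal RNA-Seq kit, per the labels' protocols. Tools listed in the submitters' processing notes are SAMtools 1.9, STAR 2.7.3a and, without a version, DESeq2, and the build listed is dm6. The deposited matrix is named for counts, but its values are RPKM, reads per kilobase of gene span and per 1000000 reads. Whole reads were recovered by multiplying each value by gene length and by the step of its library. Of 64119 low values, up to 20 reads, 64119 came out within 0.1 of a whole number. Of 17606 rows, 4 had no values and were left out, and 0 value columns were without a sample. The authors also deposited tables of their own comparisons with a log2 fold change, p-value and mean normalized signal for each gene; from these only the log2 change, its error and its adjusted p-value were used.

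Reads were scaled with TMM (30% and 5% trims, factors 0.196 to 1.963), and limma 3.58.1 in R 4.3.3 was fitted to log2(scaled RPM + 1) with trend and robust options, over all 20 libraries, with 1 mean a group, 10 residual degrees of freedom and a median prior of 3.42. A minimum of 0.558 scaled RPM in 2 libraries, worth 10 reads at median depth, and of 15 reads in total left 10202 genes, and p-values were adjusted over these by the Benjamini-Hochberg method in each of 18 comparisons. The median SE of a log2 difference between the groups was 0.287. Intervals of log2 changes used the normal distribution, so they are narrower than intervals from the t distribution of the test. Fold changes on this scale understate changes of low genes. The procedure was tested on simulated data. The rule for naming covers the 10 genes and, of each list, up to 3 called genes in a comparison with the largest fold and a mean of 20 scaled RPM or more in the higher of its groups. Genes, lists and rules were chosen with earlier results of these data known. Alternatives were another scaling, none, other pseudocounts and filters, RPKM and array weights. Others were fits of the compared groups alone, a block for the replicate number, and dropping libraries in turn. For each comparison the libraries dropped were those of its groups and WT gland replicate 2 at -30 h. Sequences and promoter motifs were not used here.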

Additional observations from a re-analysis of the deposited data

Results flagged for a closer look

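A difference between groups in the size of a change was tested directly, as an interaction in the limma fit, and 13 such differences passed the threshold among the 10 genes. The change from -30 h to -6 h in gland differed between EcRi and WT for Pgi (log2 -1.02 ± 0.21), Pfk (-1.68 ± 0.46), Gapdh2 (1.13 ± 0.29) and Ldh (-4.84 ± 0.49). Of these only the Ldh difference was kept when any 1 library of the compared groups was left out. Pgi came under 2-fold without WT gland replicate 1 at -30 h or -6 h or EcRi gland replicate 1 at -30 h (-0.87 to -0.98), Pfk without WT gland replicate 2 at -30 h (-0.99), and Gapdh2 without EcRi gland replicate 2 at -30 h (0.73) or WT gland replicate 2 at -6 h (0.96). Pfk also lost its call without EcRi gland replicate 1 at -30 h (-1.38, adjusted p = 0.0597).

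The change over the same hours differed between WT wing and WT gland for Gapdh2 (log2 1.26 ± 0.29) and Ldh (-4.87 ± 0.49), and that from -6 h to +6 h for Gapdh2 (-1.17 ± 0.29), Pglym78 (1.65 ± 0.44) and Ldh (6.90 ± 0.49). The later Gapdh2 difference was lost without WT wing replicate 1 at -6 h (-0.85) or replicate 2 (-0.96), and the Pglym78 difference without TMM scaling (0.61). At -6 h the EcRi effect differed between wing and gland for Pgi (1.74 ± 0.21), Pfk (1.78 ± 0.46), Pglym78 (2.13 ± 0.44) and Ldh (2.87 ± 0.49). The Ldh differences kept their sign without TMM scaling, though not the call in the EcRi effect (0.65), while those of Pgi and Pfk that involve WT gland at -6 h, and that of Pglym78 in the EcRi effect, did not.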

How the results depend on the processing

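Scaling mattered most. Without TMM scaling (first value) and on log2(RPKM + 0.1) (second), directions of values called on at least 1 of the scales reversed as follows; sign changes of values called on neither, such as Pfk between wing and gland at +6 h, are not listed. In WT gland from -30 h to -6 h Pgi became -2.27 and -2.31, Pfk -0.72 and -0.73, Gapdh1 -1.92 and -1.95, Pglym78 -1.80 and -1.82, PyK -2.46 and -2.47, and Glut1 -0.024 and -0.019. Between wing and gland at -6 h Pgi became 2.0 and 2.04, Tpi 2.79 and 2.87, Gapdh1 2.09 and 2.11, Pgk 2.43 and 2.46, Pglym78 0.84 and 0.86, and PyK 2.20 and 2.22. At +6 h Pgi became 1.53 and 1.54, Tpi 1.57 and 1.58, Gapdh1 1.60 and 1.61, Gapdh2 1.44 and 1.45, Pgk 1.74 and 1.75, Pglym78 1.45 and 1.46, and PyK 1.42 and 1.42. Between EcRi and WT gland at -6 h Pgi became 0.68 and 0.70, Pfk 0.46 and 0.46, Tpi 1.48 and 1.54, Gapdh1 0.92 and 0.94, Pgk 1.31 and 1.33, Pglym78 0.24 and 0.25, and Ald1 0.71 and 0.71. In the test of the EcRi effect between tissues Pgi became -0.50 and -0.51, Pfk -0.43 and -0.44, Gapdh1 -1.33 and -1.35, Pgk -1.20 and -1.22, and Pglym78 -0.12 and -0.13. In that of the gland time course between genotypes Pgi became 1.89 and 1.92, Pfk 1.17 and 1.18, Gapdh1 2.35 and 2.38, and Pglym78 2.13 and 2.17. In that of wing against gland from -30 h to -6 h Pfk became 1.62 and 1.63, Gapdh1 1.85 and 1.87, and Pglym78 2.31 and 2.34.

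Counts of the 10 genes called moved by over 1.5 times in these cases. Without scaling they were 4 (WT wing to +6 h), 9 (WT gland to -6 h), 8 and 9 (wing against gland at -6 h and +6 h), 7 (EcRi gland at -30 h), 9 (gland time course between genotypes) and 10 (wing against gland time course to -6 h), and on RPKM 3, 9, 8, 9, 7, 9 and 10. Median-of-ratios scaling gave 4, 2 and 7 for wing against gland at -6 h, at +6 h and the EcRi effect between tissues. A pseudocount of 4 gave 0 for WT wing to -6 h. With no fold minimum there were 4 for WT gland to -6 h, 7, 6 and 4 for wing against gland at the 3 times, 6 for EcRi gland at -30 h and 2 for EcRi gland over time. Array weights gave 2 (WT wing to -6 h), 0 (wing against gland at -30 h), 1 (EcRi wing at -30 h), 0 (EcRi gland at -30 h), 2 (gland time course between genotypes) and 1 (wing against gland to -6 h). Fits of the compared groups alone gave 2, 1, 1, 0, 0 and 1 for WT wing to -6 h, WT gland to -6 h, EcRi wing at -30 h, EcRi gland at -30 h, EcRi gland over time and the gland time course between genotypes; over all genes, EcRi gland at -30 h then had 83 calls in place of 1285. The cause was not tested. For the 7 lists, by the same limit, 516 counts moved over all alternatives and libraries left out, and 3726 did not.

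With 1 library left out at a time the counts ran from 0 to 2 (WT wing to -6 h), 2 to 4 (WT gland to -6 h), 2 to 6 and 2 to 4 (wing against gland at -30 h and -6 h), 0 to 1 (EcRi wing at -30 h), 1 to 5 (EcRi gland at -30 h), 0 to 1 (EcRi gland over time) and 4 to 7 (EcRi effect between tissues), and stayed at 7 for WT wing to +6 h and 5 for WT gland to +6 h. Replicate numbers were not established as pairs, since same-numbered deviations correlated from -0.027 to 0.411 over 13 comparisons. With the replicate number as a block, the pairing moved no count by over 1.5 times; calls were 5 in place of 4 for the gland time course between genotypes, 3 in place of 2 for wing against gland to -6 h and 6 in place of 4 for the EcRi effect between tissues. Depth limits Ldh alone among the 10, with 1 to 9 reads in WT gland at -30 h; the other 9 had at least 210 reads in every library.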
